A study of Homo sapiens with 60 samples.

Results

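The nuclear genes for the subunits of the respiratory chain and ATP synthase were followed through 21 treatment groups of HT29 cells, an established human colorectal adenocarcinoma line. Members were chosen by symbol: the NDUFA, NDUFB, NDUFC, NDUFS and NDUFV genes with a number and NDUFAB1 for complex I, SDHA to SDHD for complex II, the UQCR genes for complex III, the COX4 to COX8 genes for complex IV and the ATP5 genes for complex V. Of 207 matching rows, 117 with pseudogene names and 1 antisense name were set aside, which left 89 members of 60675 genes. Complex I had 37 members, complex II 4, complex III 10, complex IV 18 with NDUFA4 counted there, and complex V 20. A few subunits carry other names and are not members, among them CYC1, the cytochrome c1 of complex III, which is described below with the electron carriers.

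Complexes I and II pass electrons from NADH and from succinate to coenzyme Q, complex III passes them on to cytochrome c, and complex IV hands them to oxygen. Complexes I, III and IV pump protons, and complex V uses the proton gradient to make ATP. Most subunits are nuclear genes whose proteins are imported, while a small core is read from the mitochondrial genome, so both gene sets are needed for an intact chain. Colon epithelial cells are known to feed the chain largely from butyrate.

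The cells were treated for 24 h. The groups were wortmannin at 10 µM, LY294002 at 10 µM, 6 herbal water extracts each at 20, 100 and 500 µg/mL, and a vehicle control of 0.1% DMSO. Wortmannin and LY294002 are inhibitors of PI3K, the lipid kinase upstream of AKT, and the study used them as positive controls. The extracts were Poria cocos, Atractylodis Rhizoma, Glycyrrhizae Radix (licorice), Panax ginseng, Angelicae Gigantis Radix and Paeoniae Radix. Each group had 3 libraries, except the Paeoniae groups with 2, for 60 libraries in all. Whether replicates came from separate cultures is not in the labels, so p-values measure the spread between these libraries only, which may be technical. The sample codes of vehicle and inhibitors begin with 1, those of Poria and Atractylodis with 2, of Glycyrrhizae and ginseng with 3, and of Angelicae and Paeoniae with 4. What this number stands for is not stated, and a difference between an extract and vehicle cannot be told apart from a difference between these sets of codes, whereas the comparison of 500 with 20 µg/mL stays within one set.

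Libraries held 20431980 to 35477712 counts on genes. Epithelial markers were high, with KRT8 at 6654 CPM and EPCAM at 558 CPM, although the intestinal factors CDX1 and CDX2 were low at 0.864 and 5.07 CPM. CPM here is a gene's count relative to the TMM-scaled library total, and means are over all 60 libraries unless a group is named. Of the 21 marker genes of fibroblasts, leukocytes, endothelium and striated muscle, LYZ was high at 1497 CPM, and CD68, CD14, PECAM1 and COL1A1 lay between 1.26 and 6.73 CPM. One library stood apart for the members. In LY294002 replicate 3 the genes outside the members with transcripts under 1000 nt took 15.42% of counts, against 12.56 to 14.52% in the other 59 libraries. Results that rest on this library are given with and without it.

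All but 7 members passed the filter on low counts, so 82 were tested. COX4I2, COX6A2, COX7B2 and COX8C, isoforms of complex IV known mainly from lung, muscle or testis, had no count in any of the 60 libraries, which allows up to 3 counts or 0.114 CPM in a library. COX7A1, the heart and muscle isoform, had 170 counts over all libraries, and ATP5MGL, a retrocopy of ATP5MG, had 19. UQCRFS1-DT, a divergent noncoding transcript that the symbol rule takes in, had 73. UQCRHL, a retrocopy of UQCRH, averaged 7.27 CPM, and the readthrough transcript ATP5MF-PTCD1 11 CPM. Both share reads with their parent gene, so their values are uncertain.

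Levels ranged widely within each complex. The median member had 56.1 CPM in complex I, with a range of 20.4 to 321 CPM. Medians were 115 CPM in complex II, 127 CPM in complex III, 110 CPM in complex IV and 101 CPM in complex V. The highest in CPM was ATP5F1B, the catalytic beta subunit of ATP synthase, at 491 CPM with libraries between 411 and 547 CPM. It was followed by NDUFB9 of complex I at 321 CPM, COX6B1 of complex IV at 270 CPM, ATP5F1A, the alpha subunit, at 261 CPM and SDHA, the flavoprotein of complex II, at 257 CPM. Of the 3 genes for the c-ring of ATP synthase, ATP5MC2 was at 170 CPM, ATP5MC3 at 101 CPM and ATP5MC1 at 48.1 CPM. ATP5IF1, the inhibitor of ATP hydrolysis by ATP synthase, was at 113 CPM, NDUFA4 at 110 CPM and COX7A2L, a factor in joining complexes III and IV into supercomplexes, at 65.7 CPM. COX6B2, the testis isoform of COX6B1, was at 0.38 CPM.

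**Figure D1:**
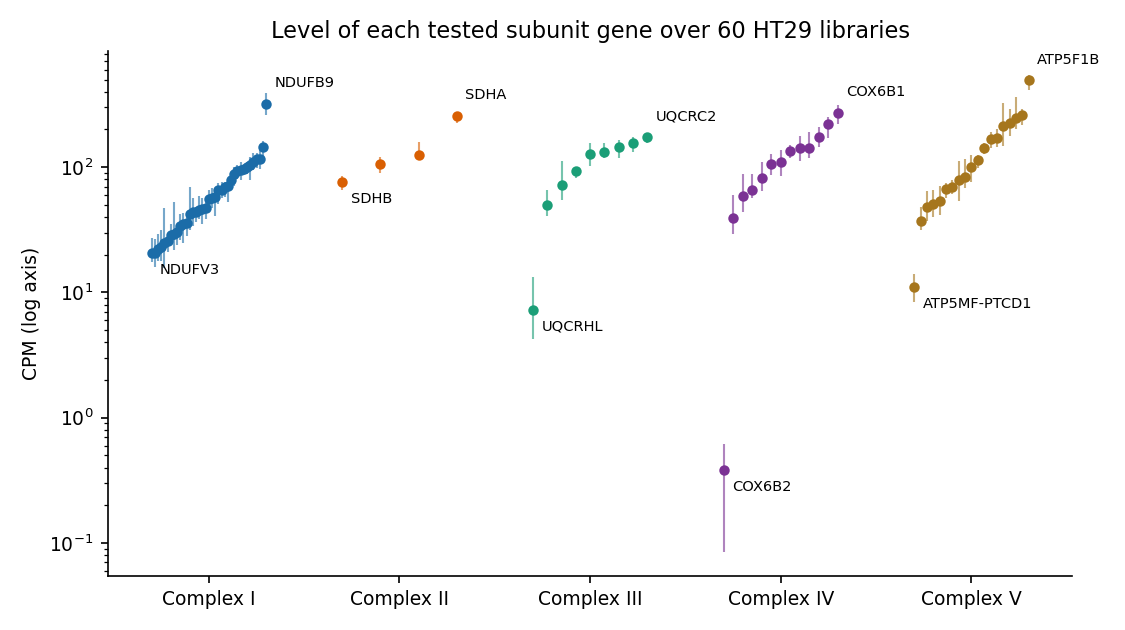
Mean CPM of the 82 tested members over 60 libraries on a log axis, by complex; each point is 1 gene. Complexes overlap in their range, with ATP5F1B at 491 CPM on top and COX6B2 at 0.38 CPM at the bottom.

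Divided by the median length of the annotated transcripts, the order changed. Taking each complex on its own, the highest level per kilobase was 693 CPM per kb for ATP5MF in complex V. It was 475 for COX6B1 in complex IV and 428 for NDUFB9 in complex I. In complex II it was 270 for SDHC, and in complex III 210 for UQCRH. The lowest in complex IV was COX6B2 at 0.230 CPM per kb, in complex III UQCRHL at 3.34 and in complex V ATP5MF-PTCD1 at 4.42. In complex I it was NDUFV3, an accessory subunit at the NADH-binding end, at 6.54. In complex II it was SDHB, the iron-sulfur subunit, at 65.8. The place of SDHC rests on a gene whose annotated transcripts run from 369 to 13566 nt.

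Across the 21 groups 78 of the 82 tested members varied by less than 1.5-fold between their highest and lowest group mean, and COX6B2, the lowest of all, was the only one past 2-fold at 2.44-fold. The most even members within groups were UQCRC2, a core subunit of complex III, with a residual SD of 0.037 on the log2 scale, and NDUFA10 with 0.038. The most variable was COX6B2 with 0.403, at under 1 CPM, followed by NDUFA1 with 0.291, UQCRHL with 0.264, ATP5ME with 0.223 and ATP5F1E with 0.190. Among the 79 members at 20 CPM or more the median residual SD was 0.0987, against 0.0710 for all 7593 genes at that level. Members with transcripts under 1000 nt had a median of 0.11 (55 members) and longer ones 0.0805 (24 members). Among genes outside the members it was 0.0883 for 553 short and 0.0693 for 6805 longer genes. The members also varied together within groups: the median correlation of residuals over 3081 pairs of members was 0.512, with 87.0% of pairs above 0. This describes genes measured in the same libraries, most of them with transcripts under 1000 nt. No such value is given here for other genes or without LY294002 replicate 3.

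**Figure D2:**
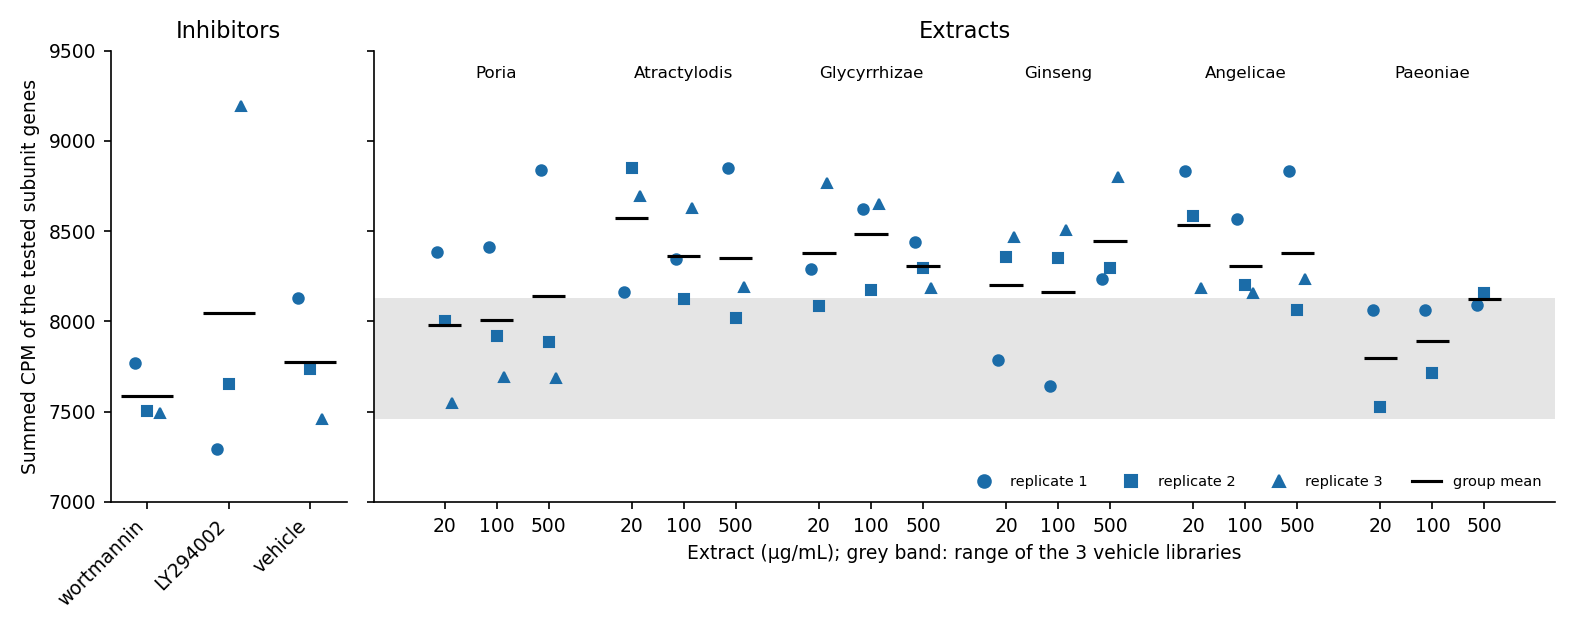
Summed CPM of all members in each library (points) and group mean (bars), by group; the axis does not start at 0. LY294002 replicate 3 is the highest library, and wortmannin has the lowest group mean, at 7589 CPM, only with that library kept: without it the LY294002 mean is 7473 CPM.

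Summed over all members, wortmannin gave 7768, 7505 and 7493 CPM, LY294002 7293, 7654 and 9193 CPM, and vehicle 8128, 7739 and 7460 CPM. The means were 7589 ± 156 CPM with wortmannin, 8046 ± 1009 CPM with LY294002 and 7776 ± 335 CPM with vehicle (SD, n = 3 each). The LY294002 libraries spanned more than the vehicle range, and without replicate 3 their mean was 7473 ± 255 CPM (n = 2). All 18 extract groups had a mean above that of vehicle, up to 8571 CPM at Atractylodis 20 µg/mL, and 34 of 51 extract libraries lay above the highest vehicle library. The highest group was 1.13-fold above the lowest. By complex, wortmannin gave the lowest group mean in all 5 with every library kept, and the highest group was 1.11-fold to 1.16-fold above it. That order rests on LY294002 replicate 3. Without it the wortmannin means were above those of LY294002 in complex I (2344 CPM with wortmannin and 2279 with LY294002), complex II (521 and 511 CPM), complex III (894 and 880 CPM) and complex V (2403 and 2349 CPM), but below in complex IV (1427 and 1455 CPM). As these are bulk RNA samples, a smaller number of cells of a kind and less RNA per cell cannot be told apart.

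The genes outside the members whose group means were most like the average member profile over the 21 groups were SNRPD2 with a Pearson r of 0.946, NEDD8 with 0.936 and TMEM258 with 0.910, out of 10574 genes compared. These coefficients describe 21 group means, vehicle among them, whose libraries also differ in depth and code set.

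LY294002 against vehicle was the comparison in which most members were called. Of 82 members 18 rose and 4 fell in edgeR's quasi-likelihood test at an adjusted p under 0.05, which is 22.0% and 4.88% of members, while 18.7% of all genes rose and 20.5% fell. The median log2 fold change of the members was 0.05. By complex, 8 of 37 tested members of complex I rose, 1 of 4 of complex II rose and 1 fell, 2 of 9 of complex III rose and 1 fell, 5 of 13 of complex IV rose, and 2 of 19 of complex V rose and 2 fell. Without LY294002 replicate 3 the split turned to 3 higher and 12 lower with a median of -0.05, where 14.8% of all genes rose and 17.3% fell. Only 7 of the 22 calls remained: COX7A2L, SDHB, ATP5IF1, NDUFA2, NDUFV3, ATP5F1C and UQCRFS1. The 8 calls gained were all lower: NDUFAB1, NDUFS1, NDUFC1, NDUFS6, NDUFA6, COX7B, ATP5MK and ATP5MF. Without vehicle replicate 3 there were 9 higher and 3 lower, where 15.4% of all genes rose and 18% fell.

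**Figure D3:**
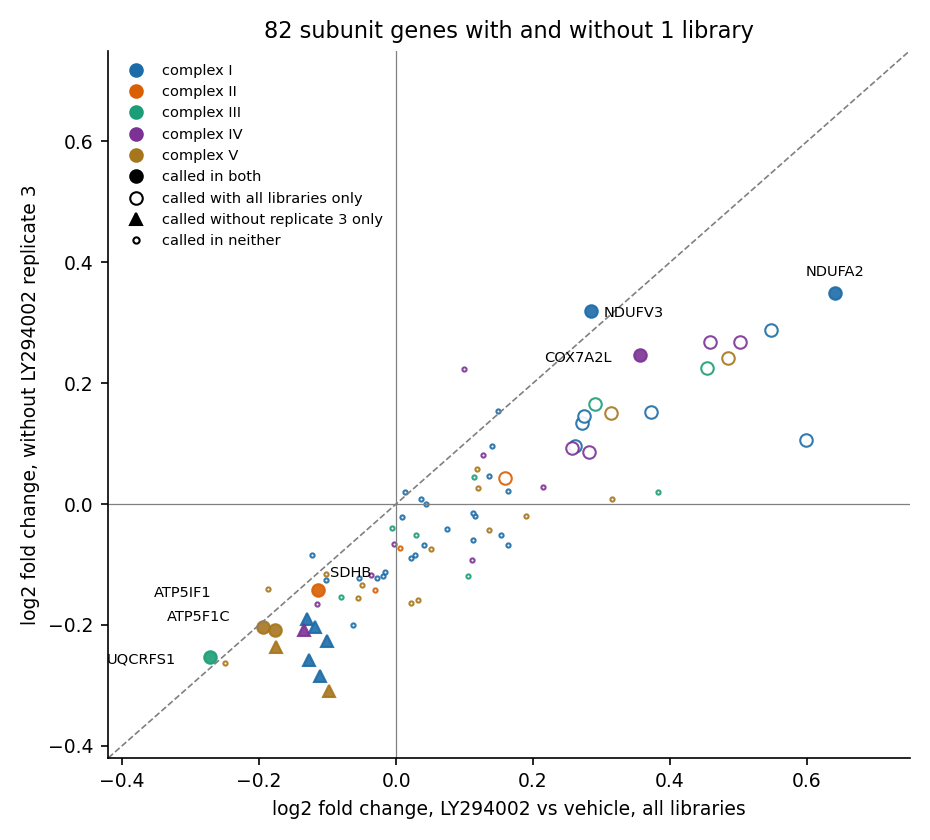
Log2 fold change of the 82 tested members, LY294002 against vehicle, with all libraries (horizontal) and without LY294002 replicate 3 (vertical), coloured by complex; the dashed line marks equal values. Large points above 0.2 on the horizontal axis mostly lie well below the line, NDUFV3 lies just above it and UQCRFS1 close to it.

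NDUFA2, NDUFV3, COX7A2L, ATP5F1C and UQCRFS1, called with LY294002 under every setting tried, and SDHB, called with Poria and Glycyrrhizae at 500 µg/mL against vehicle, carry the comparisons that follow, and the 150 bases before their RefSeq transcription start (GRCh38.p14, gene strand, 5′ to 3′) show what their promoters hold. Capitals mark an NRF1-type motif in ATP5F1C (chr10:7788027-7788176, plus strand) and UQCRFS1 (chr19:29213152-29213301, minus strand), an ETS-type motif in SDHB (chr1:17054033-17054182, minus strand), and a TATA box, here on the opposite strand, in NDUFA2 (chr5:140647631-140647780, minus strand). In the 150 bases of NDUFV3 (chr21:42893159-42893308, plus strand) and before either start of COX7A2L (start 1 with chr2:42361218-42361367 and start 2 with chr2:42368958-42369107, minus strand) none of the motifs searched was found.
NDUFA2: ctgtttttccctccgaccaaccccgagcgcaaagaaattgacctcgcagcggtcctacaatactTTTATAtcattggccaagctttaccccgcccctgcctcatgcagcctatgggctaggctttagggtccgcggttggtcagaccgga
NDUFV3: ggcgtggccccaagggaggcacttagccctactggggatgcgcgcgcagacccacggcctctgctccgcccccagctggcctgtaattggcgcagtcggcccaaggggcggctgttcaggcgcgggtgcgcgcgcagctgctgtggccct
COX7A2L start 1: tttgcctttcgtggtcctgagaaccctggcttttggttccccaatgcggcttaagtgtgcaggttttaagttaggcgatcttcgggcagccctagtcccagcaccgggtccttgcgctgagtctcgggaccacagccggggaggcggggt
COX7A2L start 2: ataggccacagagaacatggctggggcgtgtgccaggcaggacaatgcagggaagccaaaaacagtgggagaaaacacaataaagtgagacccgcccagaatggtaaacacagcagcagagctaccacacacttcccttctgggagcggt
ATP5F1C: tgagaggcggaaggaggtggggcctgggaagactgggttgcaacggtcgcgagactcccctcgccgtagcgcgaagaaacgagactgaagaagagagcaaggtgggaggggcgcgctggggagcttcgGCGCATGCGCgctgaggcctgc
UQCRFS1: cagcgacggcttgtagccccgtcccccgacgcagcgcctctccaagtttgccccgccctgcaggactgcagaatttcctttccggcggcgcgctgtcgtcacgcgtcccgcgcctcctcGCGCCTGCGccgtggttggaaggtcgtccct
SDHB: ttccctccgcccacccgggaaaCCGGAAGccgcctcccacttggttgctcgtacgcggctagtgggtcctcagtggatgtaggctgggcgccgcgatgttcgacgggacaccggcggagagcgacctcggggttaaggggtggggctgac

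NRF1 and GABP, an ETS factor, are known regulators of nuclear genes for the chain. The letters searched, on both strands of windows of 250 bases before to 50 after the start, were GCGCNTGCG for NRF1, CCGGAAG for ETS factors, AAGATGGCG for YY1 and TATAAA for the TATA box. RefSeq windows matched 67 of the 82 tested members, with 80 windows among 35116 of all genes. The NRF1 letters were in 25 member windows (31.2%) and 2624 of all windows (7.47%), the ETS letters in 22 (27.5%) and 3603 (10.3%), the YY1 letters in 10 (12.5%) and 614 (1.75%), and the TATA box in 6 (7.5%) and 4049 (11.5%). Of 67 members, 40 held the NRF1 or the ETS letters. The median GC content was 60.2% in member windows and 58.7% in all. A match describes letters in a window, and binding was not measured.

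The largest rise with LY294002 was in NDUFA2, an accessory subunit of the complex I hydrophilic arm. NDUFA2 had 31.0, 32.2 and 52.7 CPM with LY294002, against 26.6, 25.8 and 22.0 CPM with vehicle. The groups did not overlap, and replicate 3 was far above the other LY294002 libraries. The log2 fold change was 0.64 ± 0.14 (SE, adjusted p = 0.000244), and it ranged from 0.35 to 0.77 over 14 other settings, all of them called.

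NDUFV3 had 27.1, 26.2 and 24.8 CPM with LY294002 and 19.3, 22.2 and 22.7 CPM with vehicle. Here replicate 3 was the lowest of the LY294002 libraries and still above every vehicle library. The log2 fold change was 0.28 ± 0.07 (adjusted p = 0.000958). COX7A2L had 72.1, 68.9 and 87.4 CPM with LY294002, against 62.4, 58.5 and 57.5 CPM with vehicle, with no overlap and a log2 fold change of 0.36 ± 0.08 (adjusted p = 0.000241). Over the same settings these changes ranged from 0.21 to 0.33 for NDUFV3 and from 0.25 to 0.43 for COX7A2L.

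The falls were smaller. UQCRFS1, the Rieske iron-sulfur protein of complex III, had 120, 125 and 118 CPM with LY294002, against 152, 143 and 144 CPM with vehicle. All LY294002 libraries lay below all vehicle libraries, with a log2 fold change of -0.27 ± 0.05 (adjusted p = 6.7e-05). ATP5F1C, the gamma subunit in the central stalk of ATP synthase, had 128, 130 and 132 CPM with LY294002 and 155, 146 and 145 CPM with vehicle, without overlap. Its log2 fold change was -0.19 ± 0.05 (adjusted p = 0.000514). NDUFA2, NDUFV3, COX7A2L, UQCRFS1 and ATP5F1C were called under every setting tried, with ranges of -0.31 to -0.24 for UQCRFS1 and -0.24 to -0.16 for ATP5F1C.

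ATP5IF1 averaged 104 ± 3.99 CPM with LY294002 and 118 ± 5.51 CPM with vehicle, a log2 fold change of -0.18 ± 0.06 (adjusted p = 0.00963) that was lost without vehicle replicate 3. SDHB had 65.1, 68.0 and 70.4 CPM with LY294002 against 77.3, 72.2 and 70.7 CPM with vehicle, a narrow gap with a log2 fold change of -0.11 ± 0.04 (adjusted p = 0.0276) that was lost in 3 of 6 fits with 1 library left out.

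The other 15 calls were all higher and were lost without LY294002 replicate 3. Those whose libraries did not overlap between the groups were NDUFB2 at 0.55, COX6C at 0.50, UQCRQ at 0.45, NDUFS4 at 0.37, ATP5PD at 0.31, UQCR11 at 0.29 and NDUFA8 at 0.27 in log2 fold change. NDUFB2 shows the pattern, with 42.5, 44.7 and 69.4 CPM with LY294002 and 38.9, 36.8 and 31.4 CPM with vehicle. Replicate 3 lay far above its partners, which stood only slightly above the vehicle libraries. NDUFA1, a small subunit of the complex I membrane arm, had 19.1, 23.8 and 47.5 CPM with LY294002 and 24.4, 19.6 and 15.7 CPM with vehicle, so that 2 of the 3 libraries lay inside the vehicle range. ATP5F1E, the epsilon subunit, had 186, 231 and 323 CPM with LY294002 and 208, 174 and 147 CPM with vehicle, again with overlap.

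**Figure D4:**
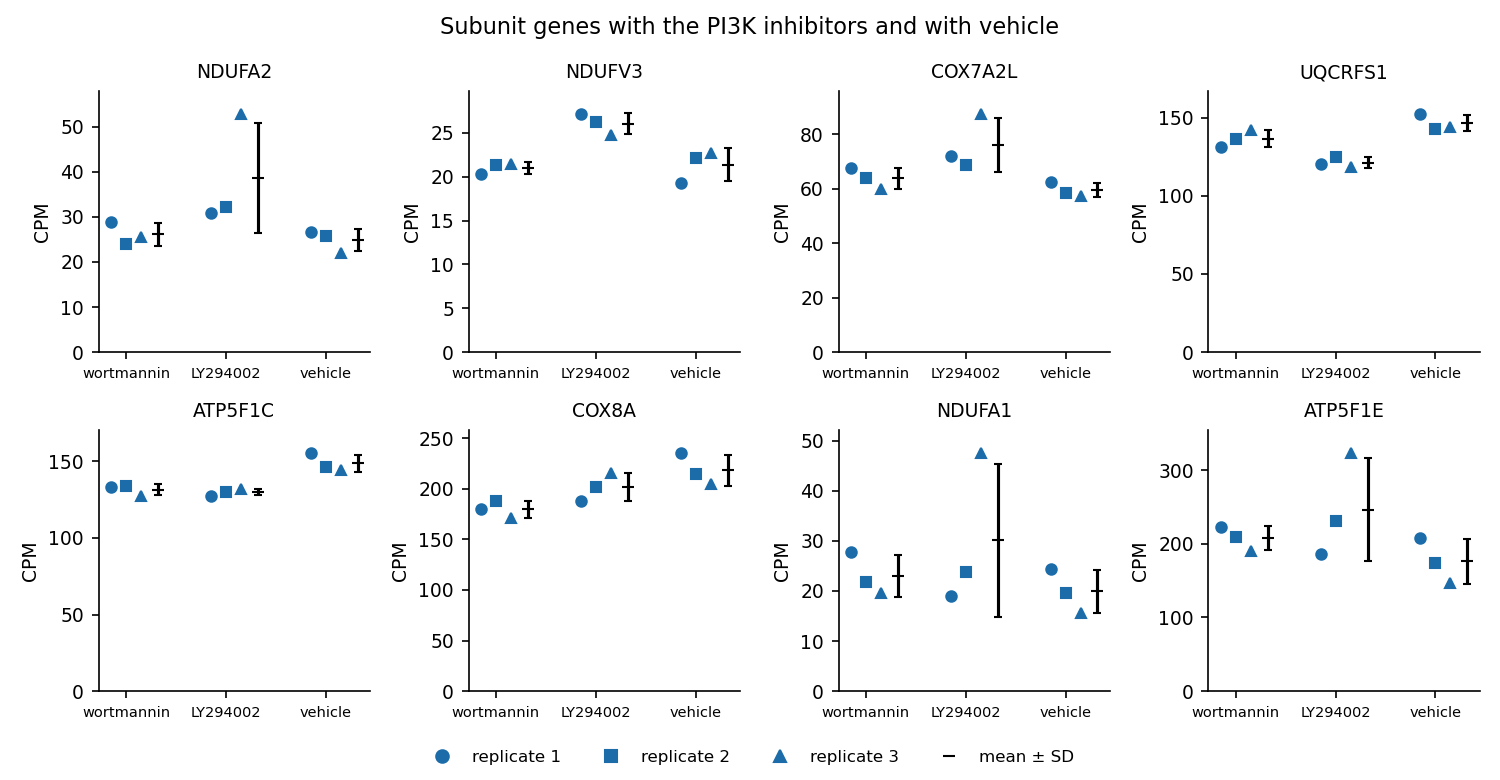
CPM of 8 members with wortmannin, LY294002 and vehicle; symbols are replicates 1 to 3, and the bar is the mean with SD (n = 3). Replicate 3 of LY294002 stands above its partners in NDUFA2, COX7A2L, NDUFA1 and ATP5F1E, but not in NDUFV3, UQCRFS1 or ATP5F1C.

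With wortmannin 4 members fell and none rose in edgeR's test. At an unadjusted p under 0.05 there were 7 members, 8.54% of members, where 26.1% of all genes passed. Of all genes 7.46% fell and 6.26% rose, and 4.88% of the 82 members fell. COX8A, a small subunit of complex IV, had 179, 188 and 171 CPM with wortmannin, against 235, 214 and 205 CPM with vehicle. No libraries overlapped, and the log2 fold change was -0.28 ± 0.06 (adjusted p = 0.00134), called under all 14 other settings. With LY294002 COX8A had 188, 201 and 215 CPM and was not called. Without LY294002 replicate 3 its log2 fold change with LY294002 was -0.17 ± 0.07 (adjusted p = 0.0615). It was called with LY294002 when the share of counts on short transcripts, chosen after seeing the data, was a covariate.

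COX7B, another small subunit of complex IV, had 92.4, 88.5 and 87.1 CPM with wortmannin and 106, 102 and 111 CPM with vehicle, with a log2 fold change of -0.25 ± 0.08 (adjusted p = 0.0216). ATP5F1C had 133, 134 and 127 CPM with wortmannin, against 155, 146 and 145 CPM with vehicle, and its log2 fold change was -0.18 ± 0.05 (adjusted p = 0.00573). ATP5IF1 averaged 105 ± 6.58 CPM with wortmannin and 118 ± 5.51 CPM with vehicle, with a log2 fold change of -0.17 ± 0.06 (adjusted p = 0.0311). The libraries of each of these genes kept apart. The COX7B call was lost in 4 of 6 fits that left out 1 library, as was that of ATP5IF1, and the ATP5F1C call was lost without vehicle replicate 1. ATP5F1C and ATP5IF1 were called lower with both inhibitors, comparisons that share the vehicle libraries. Low levels of these genes were not limited to the inhibitors. With ginseng at its lowest dose ATP5F1C averaged 137 CPM and ATP5IF1 108 CPM, below every vehicle library. The log2 fold changes were -0.11 and -0.12, and neither was called. With Glycyrrhizae at its highest dose both means were above those of vehicle, at 152 and 120 CPM. Whether the falls are particular to the inhibitors was not tested.

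Set directly against LY294002, wortmannin gave 1 higher and 8 lower members, where 12.7% of all genes were higher and 9.49% lower. NDUFV3 had 20.2, 21.3 and 21.4 CPM with wortmannin, below each of the LY294002 libraries, with a log2 fold change of -0.31 ± 0.07 (adjusted p = 0.000739) and a call under every setting tried. UQCRFS1 averaged 137 ± 5.45 CPM with wortmannin and 121 ± 3.45 CPM with LY294002, a log2 fold change of 0.17 ± 0.05 (adjusted p = 0.0170). NDUFA2 averaged 26.1 ± 2.52 CPM with wortmannin and 38.6 ± 12.2 CPM with LY294002, and its log2 fold change was -0.56 ± 0.14 (adjusted p = 0.00208). COX7A2L averaged 63.9 ± 3.88 CPM with wortmannin and 76.1 ± 9.86 CPM with LY294002, and its log2 fold change was -0.25 ± 0.08 (adjusted p = 0.0142). When LY294002 replicate 3 was left out, 2 members were called, NDUFV3 lower and NDUFC1 higher. The share of all genes called in that fit is not given here, so this count does not show whether members differ from all genes. The 2 compounds differ in structure, and both were used at 10 µM.

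Few members changed with the extracts at 500 µg/mL. With Poria 1 of 82 members rose and none fell in edgeR's test, where 4.6% of all genes rose and 2.89% fell. With Glycyrrhizae 1 rose and none fell, where 3.65% of genes rose and 3.26% fell. The gene was SDHB in both. Atractylodis, ginseng, Angelicae and Paeoniae gave 0 called members, where 0.25%, 0.352%, 0.161% and 0.161% of all genes were called. At an unadjusted p under 0.05 these 4 extracts had 23, 34, 23 and 8 members, which is 28.0%, 41.5%, 28.0% and 9.76% of members, where 14.7%, 15.6%, 16% and 11.3% of all genes passed. DESeq2 called 0, 1, 1 and 0 members, where it called 1.78%, 2.14%, 3.33% and 0.995% of the genes it gave an adjusted p. The median log2 fold change of the members was above 0 with each extract, from 0.09 to 0.14, and 58 to 75 of the 82 lay above 0. The median and the share above 0 over all genes are not given here for this dose. These comparisons share the vehicle libraries and cross the sets of sample codes. The labels give DMSO for vehicle but not for the extract or inhibitor groups, so a part of DMSO in any difference from vehicle cannot be told apart.

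SDHB had 83.5, 84.7 and 80.2 CPM with Poria at 500 µg/mL and 83.7, 81.3 and 79.9 CPM with Glycyrrhizae at 500 µg/mL, against 77.3, 72.2 and 70.7 CPM with vehicle. Every library of both extracts lay above every vehicle library. The log2 fold change was 0.17 ± 0.04 for Poria (adjusted p = 0.00633) and 0.15 ± 0.04 for Glycyrrhizae (adjusted p = 0.0178), and either call was lost without vehicle replicate 3. In the Poria dose series SDHB had 77.5, 72.6 and 76.6 CPM at 20 µg/mL and 78.3, 76.9 and 76.8 CPM at 100 µg/mL, so that the 500 µg/mL libraries lay above both lower doses.

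Within an extract, 500 against 20 µg/mL gave 1 called member with Poria, where 3.21% of genes were higher and 2.3% lower, and 1 with Glycyrrhizae, where 1.83% were higher and 2.02% lower. For Poria it was SDHB, with a log2 fold change of 0.13 ± 0.04 (adjusted p = 0.0495) that was lost in 4 of 6 fits with 1 library left out. For Glycyrrhizae it was ATP5F1C, with 152, 152 and 153 CPM at 500 µg/mL and 138, 137 and 137 CPM at 20 µg/mL. The groups were tight and apart, with a log2 fold change of 0.15 ± 0.05 (adjusted p = 0.0482), but the call was lost in every fit that left out 1 library. At 100 µg/mL ATP5F1C had 149, 140 and 144 CPM. The same comparison gave 0 members with Atractylodis, ginseng, Angelicae and Paeoniae in edgeR and in DESeq2, where edgeR called 0, 0, 0.0179% and 0.0358% of genes. At an unadjusted p under 0.05 these extracts had 3, 1, 0 and 2 members (3.66%, 1.22%, 0 and 2.44%), where 5.11%, 4.01%, 2.98% and 3.36% of all genes passed.

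**Figure D5:**
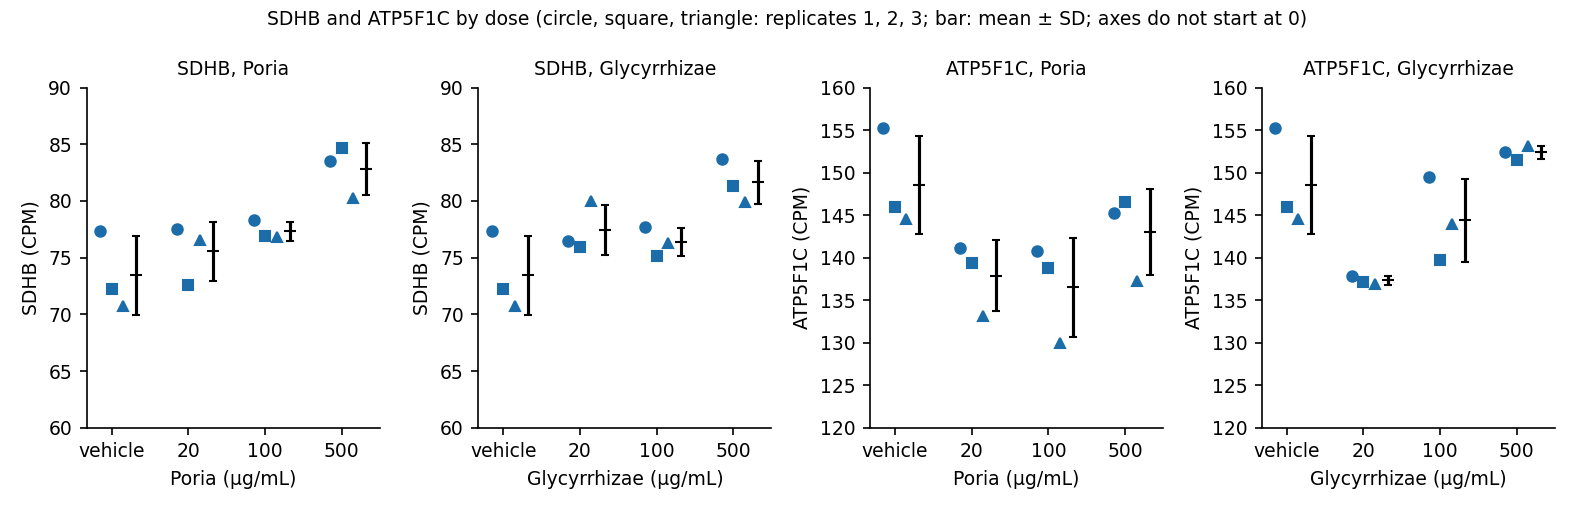
CPM of SDHB and ATP5F1C in each library of vehicle and of Poria and Glycyrrhizae at 20, 100 and 500 µg/mL; the axes do not start at 0. SDHB has its highest group mean at 500 µg/mL in both extracts, and ATP5F1C with Glycyrrhizae is lowest at 20 µg/mL.

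The difference in dose effect between extracts of one code set was tested directly. For Poria minus Atractylodis, Glycyrrhizae minus ginseng and Angelicae minus Paeoniae, edgeR and DESeq2 called 0 members, where in edgeR 0.394%, 0.0477% and 0 of all genes were called. At an unadjusted p under 0.05 there were 3, 0 and 2 members (3.66%, 0 and 2.44%), where 8.09%, 6.24% and 2.45% of all genes passed. At 20 and 100 µg/mL against vehicle, 12 comparisons gave 0 member calls in edgeR and 14 in DESeq2. DESeq2 called from 0 (ginseng 100 µg/mL) to 6.62% (Angelicae 20 µg/mL) of the genes it gave an adjusted p. At an unadjusted p under 0.05 in edgeR these comparisons had 1 to 41 members, from 1.22% of members where 4.97% of all genes passed, at Poria 20 µg/mL, to 50% where 18.3% passed, at Angelicae 20 µg/mL. Member medians were 0.02 to 0.16, and medians of all genes -0.003178 to 0.004541. In the order in which the extracts are listed above, 0.0417%, 0.364%, 0.34%, 0, 0.00596% and 0.0477% of all genes were called at 100 µg/mL, and 0, 0.137%, 0.37%, 0, 0.173% and 0 at 20 µg/mL.

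Genes around the subunits were taken from lists of assembly factors, carriers and related pathways. Their counts stand beside the shares over all genes given above: 18.7% higher and 20.5% lower with LY294002, 6.26% and 7.46% with wortmannin, 4.6% and 2.89% with Poria at 500 µg/mL, and 3.65% and 3.26% with Glycyrrhizae at 500 µg/mL. The mitochondrially encoded subunits, the partners of the members, had 1 of 13 lower with LY294002, MT-ND2 at -0.45, lost without vehicle replicate 3. None was called with wortmannin in edgeR, with 2 at an unadjusted p under 0.05, where 26.1% of all genes passed. With Poria at 500 µg/mL 9 of 13 fell, where 2.89% of all genes fell, with a median log2 fold change of -0.45 over the list. MT-CYB, the cytochrome b of complex III, averaged 5641 ± 253 CPM with Poria and 8214 ± 1744 CPM with vehicle. Its log2 fold change was -0.54, which was lost without vehicle replicate 3. Mitochondrial counts took 9.70, 9.39 and 8.73% of each LY294002 library and 8.61, 9.90 and 11.4% of each vehicle library. Vehicle had the highest mean of the 21 groups, at 9.96 ± 1.38%. Poria at 500 µg/mL had 7.77 ± 0.45%. The means with Glycyrrhizae at 20 µg/mL (7.56%) and Paeoniae at 100 µg/mL (7.59%) were lower still, so a low share was not particular to Poria. Over the 60 libraries the percent of mitochondrial counts and the mean log2 CPM of members had a Pearson r of -0.443. Without LY294002 replicate 3 it was -0.485. The percent of counts on genes outside the members with transcripts under 1000 nt had an r of 0.471 with the same mean. That r was 0.369 without LY294002 replicate 3. With the mitochondrially encoded genes left out, LY294002 against vehicle kept its 22 member calls, where 39.3% of all genes were called. A cause behind these values was not tested.

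Protein import and cristae genes had the most calls with LY294002, 16 of 27 lower and 2 higher, where 20.5% of all genes fell and 18.7% rose. TOMM40, the import channel of the outer membrane, averaged 165 ± 8.13 CPM with LY294002 and 237 ± 7.66 CPM with vehicle, a log2 fold change of -0.53. CHCHD3, a cristae organiser, was at -0.50, also called under every setting. TOMM7 was at 0.87, a call lost without LY294002 replicate 3, and without that library 15 fell and 1 rose. With wortmannin 5 fell and 1 rose, HSPD1, the matrix chaperonin, among those that fell at -0.25. With Poria at 500 µg/mL 6 rose and none fell, among them TOMM40 at 0.26 and HSPD1 at 0.26, and with Glycyrrhizae 4 rose.

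Assembly factors of complex I fell in 6 of 17 with LY294002 and 1 rose, with NDUFAF5 at -0.48 and NDUFAF2 at -0.44. The counts were 6 lower and 0 higher without LY294002 replicate 3. With wortmannin 2 fell, NDUFAF5 and NDUFAF4, both at -0.31. Assembly factors of complex IV fell in 9 of 23 and rose in 4 with LY294002, with COX10, which makes heme O, at -0.54 and SURF1 at 0.64. Without LY294002 replicate 3 the counts were 9 lower and 1 higher. For complexes II and III 2 of 10 rose and 1 fell, and without that library 1 rose and 1 fell. For ATP synthase 2 of 5 rose, TMEM242 at 0.62 and ATPAF2 at 0.33, and without that library 2 rose and 1 fell, with a list median of 0.13 in place of 0.32.

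Among carriers and other points of electron entry, 3 of 10 fell with LY294002 and 2 rose. Without LY294002 replicate 3 the counts were 3 lower and 0 higher, and the list median was -0.07 in place of 0.07. CYC1 averaged 108 ± 2.22 CPM with LY294002 and 141 ± 3.59 CPM with vehicle, with a log2 fold change of -0.39 ± 0.05 (adjusted p = 1.24e-09). GPD2, the mitochondrial glycerol phosphate dehydrogenase, was at -0.41, and ETFB at 0.47 was lost without LY294002 replicate 3. Coenzyme Q synthesis genes rose in 5 of 13 and fell in 3, with COQ5 at 0.57, COQ8A at 0.51 and PDSS1, which makes the side chain, at -0.57. For this list 4 rose and 3 fell without LY294002 replicate 3, with a median of 0.09 in place of 0.15.

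In the tricarboxylic acid cycle and pyruvate entry list 6 of 19 fell with LY294002 and 1 rose. There were 8 lower and 2 higher without LY294002 replicate 3. CS, citrate synthase, averaged 384 ± 2.21 CPM with LY294002 and 483 ± 10.1 CPM with vehicle, with a log2 fold change of -0.33. MPC1, part of the pyruvate carrier, was at -0.66 and DLAT, a core enzyme of the pyruvate dehydrogenase complex, at -0.42. With wortmannin 4 fell, MPC1 at -0.45 and CS at -0.22 among them. With Poria at 500 µg/mL 2 rose and with Glycyrrhizae 3. Of the biogenesis regulators 6 of 16 tested fell with LY294002, PPRC1 at -0.43 and SLIRP at -0.37 among them, and 1 fell with wortmannin, GABPB1 at -0.23. With LY294002 5 of them fell when its replicate 3 was left out.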

How the data were processed

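Messenger RNA of 60 HT29 libraries was sequenced as 100 bp paired-end reads after preparation with a directional kit, per the labels' protocols. The authors deposited expected counts per gene made with RSEM 1.3.3 after STAR 2.7.3a, FastQC 0.11.9 and Trim Galore 0.6.5 on hg38, per the submitters' processing notes. Neither the annotation release nor the strand setting is given in the sources used here, so overlapping and antisense genes cannot be told apart from them. Of the values above 0, 24.2% were not whole, and counts were rounded. Of 273 columns 60 were used and 213 were not. Gene symbols were found by gene ID for 56558 of 60675 rows.

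Genes were kept by edgeR's expression filter (minimum count 10, total 15), and 16767 were tested with edgeR 4.0.16 (limma 3.58.1, R 4.3.3): TMM scaling, a quasi-likelihood fit with 1 mean for each of 21 groups, 39 residual degrees of freedom and Benjamini-Hochberg adjustment over all 16767 genes. The members, lists and tests were chosen with earlier results of these data known. Genes were named by rule: called members of at least 5 CPM whose libraries did not overlap between groups, the extremes of each complex, isoforms, and up to 3 called genes of each list. NDUFB5, COX5B and other called members with overlap count in the totals, and NDUFA1 and ATP5F1E were named after their values were seen. Alternatives were DESeq2 1.42.0, other size factors, filters, fits and libraries left out, and 2 were added after seeing the data. The test was also run on simulated counts, but the outcome is not reported here, so no error rate for these data is given. The NRF1 and YY1 letters searched in promoters are shortened forms, chosen after longer ones had been counted. No pair of replicates agreed within counting noise: the lowest chi-square per degree of freedom of 57 pairs was 2.41. The labels give 0.1% DMSO for vehicle where the series text gives 2%, and they give the same 3 doses for each extract where that text speaks of lower doses for the more toxic ones; the labels were followed. Depth was 20431980 to 35477712 counts.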

Additional observations from a re-analysis of the deposited data

How the results depend on the processing

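The counts of called members depended on the processing as follows (higher and lower in brackets where the split matters). Leaving out 1 library gave 2 to 4 calls for wortmannin against vehicle, 12 to 31 for LY294002 against vehicle, 2 to 23 for wortmannin against LY294002, 0 to 5 for Poria 500 µg/mL against vehicle, 0 to 1 for Atractylodis, 0 to 3 for Glycyrrhizae, 0 to 2 for ginseng, 0 to 2 for Angelicae, 0 to 1 for Poria 500 against 20 µg/mL, 0 for Glycyrrhizae 500 against 20 µg/mL and 0 to 6 for the lower doses. LY294002 reversed without its replicate 3, with 15 calls (3 higher, 12 lower). With the share of counts on short transcripts as a covariate, chosen after seeing the data, the calls were 8 for wortmannin, 25 for LY294002 (8 higher, 17 lower), 4 for wortmannin against LY294002, 7 for Poria 500, 2 for Atractylodis, 1 for Angelicae, 3 for Poria 500 against 20 (1 higher, 2 lower), 0 for Glycyrrhizae 500 against 20 and 31 for the lower doses. In a fit of only the groups compared there were 2 for wortmannin, 9 for LY294002, 1 for wortmannin against LY294002, 0 for Poria 500, 3 for Glycyrrhizae 500, 1 for Angelicae, 0 for both dose comparisons with a call and 16 for the lower doses. Without a filter the calls were 22 for wortmannin against LY294002, 7 for Poria 500, 21 for Atractylodis, 13 for Glycyrrhizae, 24 for ginseng, 26 for Angelicae, 4 for Paeoniae, 2 for Poria 500 against 20, 3 for Atractylodis, 1 for Glycyrrhizae (lower), 1 for the dose effect of Poria minus Atractylodis and 196 for the lower doses (191 higher, 5 lower). With at least 5 CPM in 3 libraries they were 2 for Poria 500, 1 for Angelicae, 1 for Poria 500 against 20 (lower) and 1 for the lower doses. DESeq2 gave 1 for ginseng, 1 for Angelicae and 14 for the lower doses. The share of all genes called changed with the setting too. For LY294002 it was 35.6% with the covariate and 30.1% with only the groups compared. It was 18% without a filter and 52.5% with at least 5 CPM in 3 libraries. Such shares are not given here for the other comparisons under these settings, so their counts do not show whether members differ from all genes. The cause of these changes was not tested.

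Replicate numbers did not pair the libraries in any of 27 comparisons. With the replicate number as a block, LY294002 kept 22 calls, Poria 500 had 2 (1 in each direction), Angelicae 1 and the lower doses 1, and no named gene changed its call. With each sum as a share of all counts, the log2 ratio of summed complex III was 0.004083 for wortmannin (-0.03384 with TMM) and 0.09046 for Paeoniae 500 (0.05715). Over the 107 called results of single genes, 1207 alternative values kept their call, 287 lost it and 0 reversed. Where leaving out a library left 1 Paeoniae library, that one was assumed to vary like the other groups. Depth limits COX6B2 and the isoforms without a count.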
